A study of Mus musculus with 4 samples.

Results

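The expression of 10 genes of serine, glycine and creatine metabolism was followed through the glia of mice that carry human APOE4 or APOE3. They are Gatm, Gamt and Slc6a8 of creatine metabolism, Phgdh, Psat1 and Psph of serine synthesis, Gldc and Pipox of glycine and sarcosine breakdown, and Shmt1 and Mthfd2 of the folate cycle. The 10 genes were picked by symbol out of 32285 genes in the feature list, and they were selected on measured values of these same libraries. Their levels and LPS ratios are therefore given as a description, and no test was run on them.

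The brains of male mice whose own Apoe gene was exchanged for a human allele were dissociated, enriched for glia and sequenced cell by cell with 10x Genomics 3' chemistry. The 4 groups were APOE4 mice given lipopolysaccharide (LPS, a bacterial cell wall component that sets off systemic inflammation), APOE4 mice given NaCl, APOE3 mice given LPS and APOE3 mice given NaCl. LPS was given at 5 mg/kg into the peritoneum 24 h before collection. Each group was 1 library made from 3 pooled mice with no mark of the mouse on a cell, so every interval below covers counting error only and says nothing of the spread between mice.

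Serine is made from the glycolytic intermediate 3-phosphoglycerate in a short chain of steps catalysed by PHGDH, PSAT1 and PSPH. Serine hydroxymethyltransferases convert it to glycine and hand a one-carbon unit to folate, and the mitochondrial glycine cleavage system, of which GLDC is the decarboxylase, takes glycine apart. Creatine, the phosphate buffer of energy-demanding cells, is built from glycine and arginine by GATM and then methylated by GAMT. In the brain astrocytes are known as the main source of serine for neurons, and oligodendrocytes are known for their part in creatine synthesis.

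The gene of each enzyme was placed on GENCODE vM21 (GRCm38, the assembly called mm10). Gamt lies at chr10:80258151-80261012 on the minus strand, Gatm at chr2:122594467-122611303 on the minus strand, and Phgdh at chr3:98313170-98339990 on the minus strand. Mthfd2 spans chr6:83305691-83325908 on the minus strand, and its RefSeq start lies inside that span. The others lie at chr19:30098447-30175429 (Gldc), chr11:77880615-77894096 (Pipox), chr19:15904678-15947337 (Psat1), chr5:129765558-129787449 (Psph) and chr11:60788104-60811718 (Shmt1), all on the minus strand, and at chrX:73673150-73682502 on the plus strand (Slc6a8). The stretch of 120 bases that runs from 150 to 31 bases before the RefSeq start (assembly GRCm38.p6, minus strand, 5′ to 3′) is shown for Gamt and Gatm, both lower in LPS oligodendrocytes, and for Phgdh and Mthfd2, which lay on opposite sides of NaCl in LPS astrocytes. The windows are chr10:80261043-80261162 for Gamt, chr2:122611308-122611427 for Gatm, chr3:98340000-98340119 for Phgdh and chr6:83317635-83317754 for Mthfd2, and capitals mark the motif matches named after them.
Gamt: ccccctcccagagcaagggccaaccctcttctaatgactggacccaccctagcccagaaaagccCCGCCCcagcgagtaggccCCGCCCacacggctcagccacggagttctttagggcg
Gatm: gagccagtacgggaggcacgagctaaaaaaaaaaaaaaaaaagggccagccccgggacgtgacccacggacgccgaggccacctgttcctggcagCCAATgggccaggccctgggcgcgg
Phgdh: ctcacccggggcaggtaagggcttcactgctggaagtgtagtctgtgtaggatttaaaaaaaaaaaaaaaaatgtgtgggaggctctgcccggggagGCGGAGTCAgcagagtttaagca
Mthfd2: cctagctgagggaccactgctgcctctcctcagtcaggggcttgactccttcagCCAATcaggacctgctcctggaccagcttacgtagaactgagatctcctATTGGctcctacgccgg

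RefSeq promoters were found for 9 of the 10 genes, and the 250 bases before the start were searched on both strands for 7 short motifs. Psat1 had 2 promoters, both inside its GENCODE span, and its GC box and CCAAT box lay before different starts. The GC box GGGCGG was present upstream of 5 genes (Gamt, Gldc, Psat1, Psph and Shmt1) and in 32.7% of 32851 promoters. In Gamt it starts 86, 67 and 22 bases before the start, the first pair being the capitals of the printed stretch, read on the other strand. The CCAAT box was present upstream of 7 genes, Gatm, Phgdh and Mthfd2 among them, and in 33.8% of promoters. A match to TGACNNNGC, the core of the antioxidant response element, lay 53 bases before the start of Phgdh, and 10.2% of promoters hold one. TATAAA was found before Phgdh only among the 9 genes, against 12.4% of promoters. No match to TGATGNAA, the core of the element bound by ATF4, was found within these windows, nor to the E-box CACGTG or to the STAT motif TTCNNNGAA, which occur in 3.45%, 6.02% and 7.02% of promoters. These are matches of letters and not sites of binding.

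The libraries held 29361 barcodes in APOE4 LPS, 14122 in APOE4 NaCl, 16078 in APOE3 LPS and 15432 in APOE3 NaCl, with 73288965 to 114378032 UMIs (unique molecular identifiers, which count molecules) in each. The APOE4 LPS library stood apart. Its median barcode held 1292 UMIs against 3969 to 5640.5 in the others, 50.74% of its 18182 kept cells fell into clusters that the markers could not name against 1.48% to 4.85%, and the doublet caller removed 0 of its cells. The APOE3 contrast does not use that library, and each LPS ratio is therefore given in both genotypes. Pairs of libraries shared 61 to 140 barcode sequences, at most 0.963% of a library. Cells were clustered, and clusters were called astrocytes, oligodendrocytes and so on, that is astrocyte-like and oligodendrocyte-like, from fixed marker genes. All 12 astrocyte markers summed to 21170, 21900, 22950 and 21290 CPM in the astrocytes of APOE4 LPS, APOE4 NaCl, APOE3 LPS and APOE3 NaCl. CPM is the number of UMIs of a gene per 1000000 UMIs of that class in that library. None of the 10 genes was among the 2000 genes used for clustering.

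Astrocytes numbered 2312 in APOE4 LPS, 3663 in APOE4 NaCl, 3253 in APOE3 LPS and 4242 in APOE3 NaCl, and oligodendrocytes 1500, 2813, 2726 and 2627 in the same order. In astrocytes all 10 genes were measured, meaning that 1 of the 2 libraries set side by side held 10 UMIs or more. Of them 1 was at least 1.5-fold higher and 4 at least 1.5-fold lower in APOE4 LPS than in APOE4 NaCl, where 11.1% of 15646 genes were that much higher and 9.64% that much lower. In APOE3 LPS against APOE3 NaCl 1 was higher and 2 were lower, beside 7.84% and 10.5% of 15950 genes. In oligodendrocytes 2 were higher and 5 lower in APOE4 LPS, beside 17.5% and 14.1% of 14297 genes, and 2 were higher and 3 lower in APOE3 LPS, beside 15.0% and 14.5% of 14633 genes. Nothing is read from these shares, because the genes were chosen by the same contrast. The median log2 ratio of the 10 genes was -0.13 in APOE4 and -0.21 in APOE3 astrocytes, against -0.03 and -0.07 over all measured genes.

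**Figure D1:**
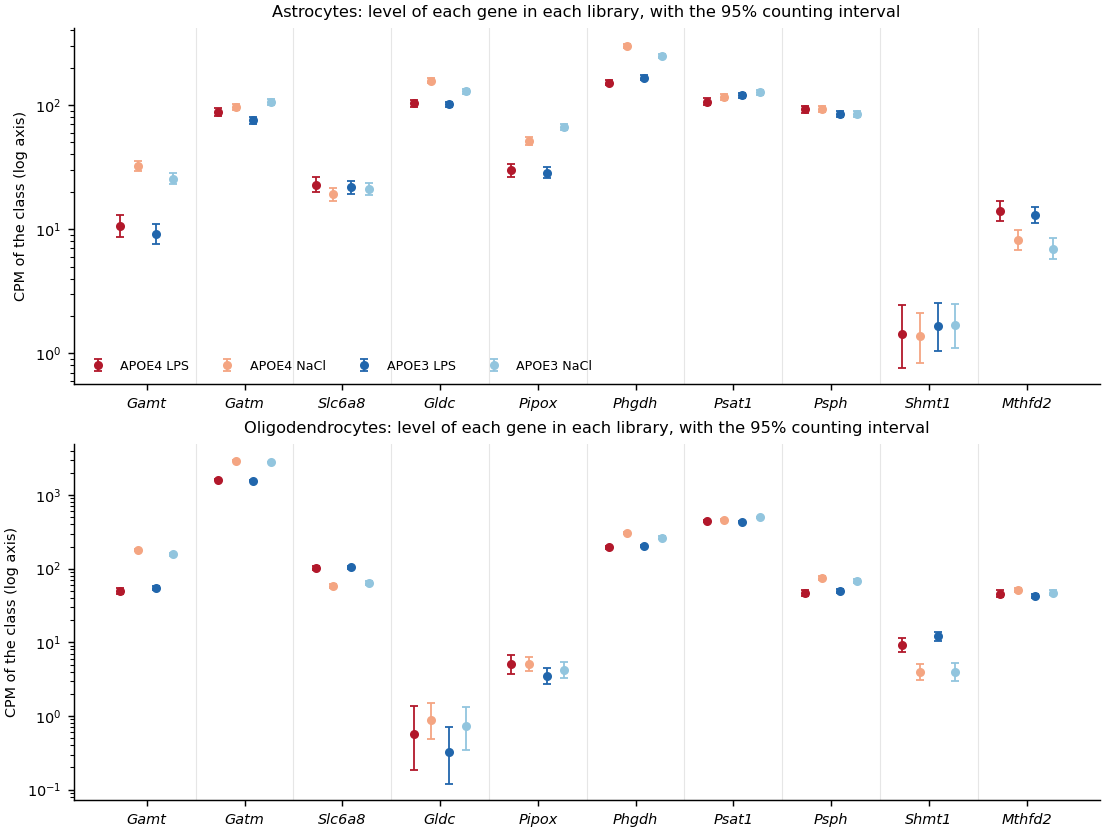
CPM of the 10 genes on a log axis in astrocytes and in oligodendrocytes, 1 point per library with its 95% counting interval, LPS left of NaCl within each genotype. In both classes the 2 Gamt points of LPS libraries lie below the 2 of NaCl libraries, at 10.6 and 9.17 against 32.3 and 25.5 CPM in astrocytes.

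Transcripts of both creatine synthesis enzymes were lower in LPS oligodendrocytes, while that of the creatine importer was higher. Gamt, which encodes the methyltransferase of the last step, stood at 50.1 CPM in APOE4 LPS and 55.3 CPM in APOE3 LPS oligodendrocytes, against 180.1 CPM in APOE4 NaCl and 155.8 CPM in APOE3 NaCl. Both LPS libraries lay under both NaCl libraries with intervals that did not overlap. Gamt was 3.59-fold lower in APOE4 (95% counting interval 3.25 to 3.98) and 2.82-fold lower in APOE3 (2.62 to 3.04). In APOE4 LPS 5.07% of oligodendrocytes had a Gamt UMI after each cell was thinned to 1000 UMIs, and in APOE3 LPS 5.36%, against 15.1% in APOE4 NaCl and 14.5% in APOE3 NaCl. Before thinning these shares were 18.8% and 24.9% against 50.8% and 46.6%. Neurons, given as the class where free RNA would show, had a Gamt UMI in 0.982% and 0.286% of LPS cells against 0.706% and 0.88% of NaCl cells after the same thinning. In APOE4 LPS 523 of the 713 neurons lay in a cluster led by Gm26871 and Meg3. That cluster held 3, 4 and 0 cells of APOE4 NaCl, APOE3 LPS and APOE3 NaCl. The median depths were 4965, 4908, 6004 and 4706 UMIs in oligodendrocytes and 1932, 7819, 5892 and 5798 UMIs in neurons, in the order APOE4 LPS, APOE4 NaCl, APOE3 LPS and APOE3 NaCl.

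Gatm encodes the amidinotransferase that joins arginine and glycine in the first step. Its level was 1616 CPM in APOE4 LPS and 1568 CPM in APOE3 LPS oligodendrocytes, against 2923 CPM in APOE4 NaCl and 2804 CPM in APOE3 NaCl. The LPS libraries lay close to each other and so did the NaCl libraries, and the fold between them was 1.81 lower in APOE4 (1.77 to 1.84) and 1.79 lower in APOE3 (1.76 to 1.82). Even so, 74.9% of APOE4 LPS and 75.6% of APOE3 LPS oligodendrocytes had a Gatm UMI after thinning, against 91.7% and 92.6% in APOE4 NaCl and APOE3 NaCl. Slc6a8, the creatine transporter of the cell membrane, moved the other way. It stood at 102.7 CPM in APOE4 LPS and 105.1 CPM in APOE3 LPS oligodendrocytes, against 57.9 CPM in APOE4 NaCl and 63.5 CPM in APOE3 NaCl, which is 1.77-fold higher (1.61 to 1.95) and 1.65-fold higher (1.53 to 1.79).

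Other measures moved with these values. The 12 oligodendrocyte markers, all present, summed to 25900 CPM in APOE4 LPS and 26920 CPM in APOE3 LPS oligodendrocytes, against 45210 and 43060 CPM in APOE4 NaCl and APOE3 NaCl, so that both the markers and Gatm were lower in LPS. LPS and NaCl oligodendrocytes also fell into different clusters. A cluster led by Itgad and Apod held 1454 of the APOE4 LPS and 2702 of the APOE3 LPS oligodendrocytes and 0 of either NaCl library, whereas the Opalin-led cluster held 39 and 24 against 2267 and 2259. No oligodendrocyte cluster had 50 cells on both sides, so the ratio within a cluster could not be taken. The 10 microglia markers in oligodendrocytes summed to 255 and 218 CPM in APOE4 LPS and APOE3 LPS, against 133 and 162 CPM in APOE4 NaCl and APOE3 NaCl. What part these have in the creatine genes' values was not tested.

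In astrocytes Gamt showed the same direction at a lower level. It measured 10.6 CPM in APOE4 LPS and 9.17 CPM in APOE3 LPS astrocytes, from 96 and 121 UMIs, against 32.3 CPM in APOE4 NaCl and 25.5 CPM in APOE3 NaCl, from 467 and 391 UMIs. The LPS and NaCl libraries did not overlap, and Gamt was 3.04-fold lower in APOE4 (2.43 to 3.82) and 2.78-fold lower in APOE3 (2.26 to 3.44). After thinning, 1.17% and 1.01% of APOE4 LPS and APOE3 LPS astrocytes had a Gamt UMI against 3.28% and 2.52% in APOE4 NaCl and APOE3 NaCl. Before it, 3.81% and 3.6% did, against 11.5% and 8.25%. The interval of that share overlapped the neuronal one in APOE4 LPS (0.771% to 1.69% against 0.396% to 2.01%), in APOE3 LPS (0.699% to 1.42% against 0.00723% to 1.58%) and in APOE3 NaCl (2.07% to 3.04% against 0.182% to 2.55%). At this depth the intervals of the shares thus did not separate astrocytes from neurons in these 3 libraries, and in APOE4 NaCl they were apart. Overlap of intervals is not a test of a difference. Neurons numbered 713, 425, 350 and 341 in APOE4 LPS, APOE4 NaCl, APOE3 LPS and APOE3 NaCl. By CPM of Gamt, astrocytes ranked 5, 3, 7 and 4 among the classes and neurons 7, 9, 10 and 9, in that order. Most neurons of APOE4 LPS were those of the Gm26871-led cluster, which the other libraries almost lacked. Oligodendrocyte RNA carried into astrocytes at the level of the oligodendrocyte markers found there (170 and 179 CPM in APOE4 LPS and APOE3 LPS, 244 and 230 CPM in APOE4 NaCl and APOE3 NaCl) would account for 3.0% to 4.0% of the astrocytes' Gamt.

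Gatm in astrocytes was 87.4 CPM in APOE4 LPS and 75.0 CPM in APOE3 LPS, against 95.7 CPM in APOE4 NaCl and 105.9 CPM in APOE3 NaCl. It was lower in LPS by 1.10-fold in APOE4 (1.0 to 1.20) and by 1.41-fold in APOE3 (1.30 to 1.53), under the 1.5-fold used here, and carried oligodendrocyte RNA would come to 12.2% to 16.5% of it. With a minimum of 2000 UMIs per cell, where a cluster with both astrocyte and oligodendrocyte markers was counted as astrocytes, the APOE4 log2 ratio was 1.01, so no direction is drawn for Gatm in APOE4 astrocytes. In APOE3 the log2 ratio of Gatm was -0.49 and ran from -0.77 to 0.01 over the alternative settings. Its lower side in APOE3 was thus not kept in every setting. Slc6a8 lay at 22.8 and 21.7 CPM in APOE4 LPS and APOE3 LPS astrocytes, against 19.1 and 20.9 CPM in APOE4 NaCl and APOE3 NaCl, and both ratios had intervals that held 1. The transporter's ratio in astrocytes, 1.20 (0.993 to 1.44) in APOE4 and 1.03 (0.88 to 1.22) in APOE3, was smaller than in oligodendrocytes.

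Endothelial cells, the lining of vessels, carried Gatm at 202.5 CPM in APOE4 LPS and 196.8 CPM in APOE3 LPS, against 704.4 CPM in APOE4 NaCl and 692.9 CPM in APOE3 NaCl. The fold was 3.48 lower (3.13 to 3.86) in APOE4 and 3.52 lower (3.29 to 3.77) in APOE3, larger than in oligodendrocytes. LPS and NaCl endothelial cells lay mostly in different clusters. The Itm2a-led cluster held 41 APOE4 LPS and 23 APOE3 LPS cells, against 605 APOE4 NaCl and 811 APOE3 NaCl cells. The Ctla2a-led cluster held 345 and 802 against 1 and 46, in the same order. A ratio within an endothelial cluster could not be taken, and the part of this split in the Gatm fold was not tested. After thinning a Gatm UMI was found in 15.5% and 18.8% of APOE4 LPS and APOE3 LPS endothelial cells, against 44.9% and 46.7% in APOE4 NaCl and APOE3 NaCl. Before it the shares were 44.3% and 52.5% against 72.4% and 75.2%, and in neurons the thinned shares were 16.3% and 2.0% against 4.24% and 2.35%. In APOE4 LPS the endothelial share was thus no higher than that of neurons, most of which lay in the Gm26871-led cluster in that library. Gamt in the same cells gave 6 and 42 UMIs (2.66 and 6.84 CPM) in APOE4 LPS and APOE3 LPS, against 65 and 95 UMIs (26.7 and 21.6 CPM) in APOE4 NaCl and APOE3 NaCl. The 10 endothelial markers summed to 17650 and 22190 CPM in APOE4 LPS and APOE3 LPS, against 24110 and 22920 CPM, and the microglia markers in endothelial cells to 1376 and 652 CPM, against 136 and 147 CPM in APOE4 NaCl and APOE3 NaCl. Oligodendrocyte RNA carried in at the level of its markers would come to 25.4% and 26.8% of endothelial Gatm in APOE4 LPS and APOE3 LPS, against 6.05% and 5.26% in APOE4 NaCl and APOE3 NaCl. The part of microglial RNA was not tested. Of the 7 genes measured in endothelial cells, 4 were at least 1.5-fold higher (Slc6a8, Phgdh, Psat1 and Mthfd2) and 2 lower (Gamt and Gatm) in APOE4 LPS, beside 19.5% and 21.3% of genes, and 1 was higher (Mthfd2) and 3 were lower (Gamt, Gatm and Psph) in APOE3 LPS, beside 14.6% and 19.1% of genes. Carried oligodendrocyte RNA would by itself make 59.0% to 127.8% of endothelial Psat1, 46.9% to 102.4% of endothelial Phgdh and, in APOE4 LPS, 59.9% of endothelial Gamt. No direction is drawn for Psat1 and Phgdh in endothelial cells, nor a size for Gamt in APOE4.

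**Figure D2:**
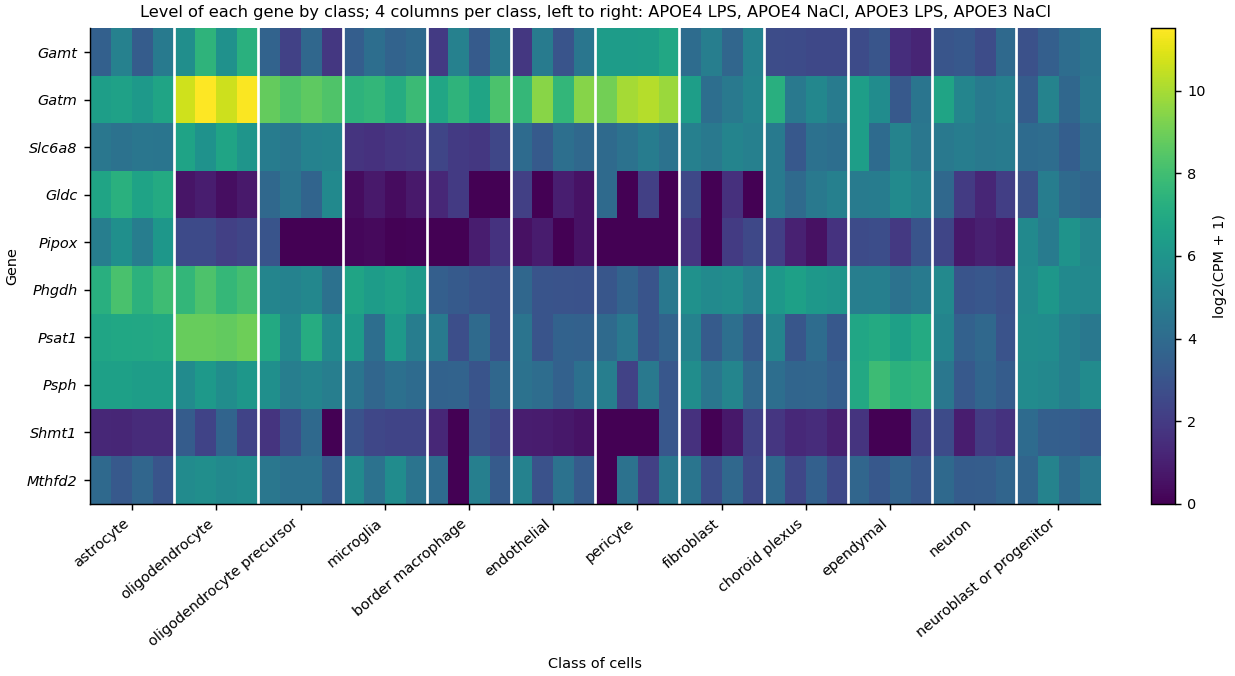
Heat map of log2(CPM + 1) of the 10 genes (rows) in 12 classes of cells, with 4 columns per class, from left to right APOE4 LPS, APOE4 NaCl, APOE3 LPS and APOE3 NaCl. Gatm is brightest in oligodendrocytes, between 1568 and 2923 CPM, and Gldc in astrocytes, between 100.9 and 156.8 CPM.

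Across the 12 classes with at least 50 cells in every library, the levels had a clear order for some genes and not for others. Gatm ranked oligodendrocyte first and pericyte second in each library, and the oligodendrocyte range over the 4 libraries did not touch that of any other class. Oligodendrocyte precursors (318.3 to 436.4 CPM) ranked next in both LPS libraries and endothelial cells in both NaCl libraries. Gamt was highest in oligodendrocytes (50.1 to 180.1 CPM) and in pericytes (81.5 to 120.1 CPM), and these ranges overlapped. Its first rank in both LPS libraries was the pericyte and in both NaCl libraries the oligodendrocyte. The Gatm ranges of pericytes (540.7 to 1217 CPM) and endothelial cells (196.8 to 704.4 CPM) overlapped. Slc6a8 was highest in oligodendrocytes (57.9 to 105.1 CPM), whose range overlapped that of ependymal cells (15.4 to 87.8 CPM). Gldc was highest in astrocytes, apart from ependymal cells (26.2 to 44.1 CPM), whereas the astrocyte range of Pipox overlapped that of neuroblasts (26.6 to 59.6 CPM). In the LPS libraries neuroblasts, at 43.0 and 59.6 CPM of Pipox from 14 and 36 UMIs in APOE4 LPS and APOE3 LPS, ranked above astrocytes. Shmt1 was highest in neuroblasts (8.41 to 15.4 CPM) and oligodendrocytes (3.97 to 12.1 CPM), and Mthfd2 in oligodendrocytes (42.8 to 51.0 CPM) and microglia (19.0 to 46.9 CPM), with overlap in both cases. In pericytes, the contractile cells of capillaries, Gatm went opposite ways in the genotypes, with 540.7 CPM in APOE4 LPS against 981.8 CPM in APOE4 NaCl, and 1217 CPM in APOE3 LPS against 887.5 CPM in APOE3 NaCl, from 64 to 139 cells per library. Border macrophages, which live at the brain's surfaces and vessels, had Gatm at 111.7 and 103.0 CPM in APOE4 LPS and APOE3 LPS, against 180.2 and 302.2 CPM in APOE4 NaCl and APOE3 NaCl.

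Of the serine synthesis transcripts of astrocytes, that of the first enzyme was lower in LPS and those of the later ones differed by 1.09-fold at most. Phgdh, the dehydrogenase that commits 3-phosphoglycerate to serine, measured 151.5 CPM in APOE4 LPS and 165.8 CPM in APOE3 LPS astrocytes, against 298.2 CPM in APOE4 NaCl and 247.5 CPM in APOE3 NaCl. Both LPS libraries lay under both NaCl libraries. The difference was 1.97-fold in APOE4 (1.85 to 2.09) and 1.49-fold in APOE3 (1.42 to 1.57), just under the size used here. Psat1, the aminotransferase of the next step, measured 106.3 and 120.0 CPM in APOE4 LPS and APOE3 LPS astrocytes, against 115.9 and 127.0 CPM in APOE4 NaCl and APOE3 NaCl, differences of 1.09-fold and 1.06-fold. Psph, the phosphatase that releases serine, measured 92.5 and 85.0 CPM against 92.9 and 84.1 CPM in the same order, with both intervals holding 1.

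Oligodendrocytes had the same 3 genes. Phgdh was 196.1 and 203.3 CPM in APOE4 LPS and APOE3 LPS oligodendrocytes, against 308.3 and 264.9 CPM in APOE4 NaCl and APOE3 NaCl, which is 1.57-fold lower (1.49 to 1.66) and 1.30-fold lower (1.25 to 1.36). Psph was 46.4 and 49.8 CPM against 74.2 and 67.4 CPM, lower by 1.6-fold (1.43 to 1.79) and 1.35-fold (1.23 to 1.49). Psat1 stayed within 1.14-fold, at 450.9 and 433.3 CPM in APOE4 LPS and APOE3 LPS, against 461.6 and 495.6 CPM in APOE4 NaCl and APOE3 NaCl. The oligodendrocyte range of Psat1 lay above that of every other class, and for Phgdh the oligodendrocytes and astrocytes together lay above the other classes. Psph was highest in ependymal cells and next in astrocytes in each library, with ranges apart from each other and from that of oligodendrocytes. For Psph oligodendrocytes ranked 3 in APOE4 NaCl, APOE3 LPS and APOE3 NaCl. In APOE4 LPS they ranked 5, behind oligodendrocyte precursors and fibroblasts.

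Microglia, the resident macrophages of the brain, showed the opposite for Psat1. It measured 78.3 CPM in APOE4 LPS and 72.2 CPM in APOE3 LPS microglia, against 17.1 CPM in APOE4 NaCl and 28.7 CPM in APOE3 NaCl. Both LPS libraries were above both NaCl libraries, 4.58-fold higher in APOE4 (3.97 to 5.29) and 2.51-fold higher in APOE3 (2.27 to 2.79). LPS and NaCl microglia lay mostly in different clusters. The Tnf-led cluster held 1014 APOE4 LPS and 2177 APOE3 LPS cells, against 46 APOE4 NaCl and 111 APOE3 NaCl cells. The Upk1b-led cluster held 56 and 23 against 1471 and 1606, in the same order. Ratios within a microglia cluster were not taken. Thinned to 1000 UMIs, 5.57% and 6.82% of APOE4 LPS and APOE3 LPS microglia had a Psat1 UMI, against 1.37% and 2.27% in APOE4 NaCl and APOE3 NaCl. Unthinned, the shares were 31% and 37.0% against 7.25% and 10.8%. Endothelial cells, whose Psat1 is of the size given by carried oligodendrocyte RNA, had thinned shares of 1.81% and 0.485% against 0.825% and 1.05% in the same order. The median depths were 6332, 4486, 7304 and 4202 UMIs in microglia and 3458, 2521, 4947 and 3183 UMIs in endothelial cells of APOE4 LPS, APOE4 NaCl, APOE3 LPS and APOE3 NaCl. Oligodendrocyte RNA carried into microglia would give 1.8 to 2.4 CPM of Psat1 and astrocyte RNA 1.7 to 2.8 CPM, in LPS and NaCl libraries alike. Precursors of oligodendrocytes also had more Psat1 in LPS, at 126.3 and 140.8 CPM in APOE4 LPS and APOE3 LPS, against 41.0 and 43.2 CPM in APOE4 NaCl and APOE3 NaCl, from 16 to 128 UMIs. The folds were 3.08 (1.85 to 5.31) and 3.26 (1.93 to 5.88) higher.

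The other members moved less in microglia. Phgdh was 104.7 and 95.9 CPM in APOE4 LPS and APOE3 LPS microglia, against 82.5 and 74.7 CPM in APOE4 NaCl and APOE3 NaCl, which is 1.27-fold and 1.28-fold higher, whereas the same gene was lower in LPS astrocytes. Gatm was 174.2 and 140.0 CPM against 194.4 and 226.2 CPM, lower by 1.12-fold (1.05 to 1.18) and 1.62-fold (1.55 to 1.69). Of 9 genes measured in microglia, 3 were higher past 1.5-fold in APOE4 LPS (Psat1, Psph and Mthfd2) and 2 lower (Gamt and Gldc), beside 15.5% and 23.6% of 14363 genes. In APOE3 LPS 2 were higher (Psat1 and Mthfd2) and 2 lower (Gatm and Gldc), beside 11.6% and 22.4% of 15354 genes. Gldc had 4 to 11 UMIs in microglia, and its 2 intervals held 1.

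**Figure D3:**
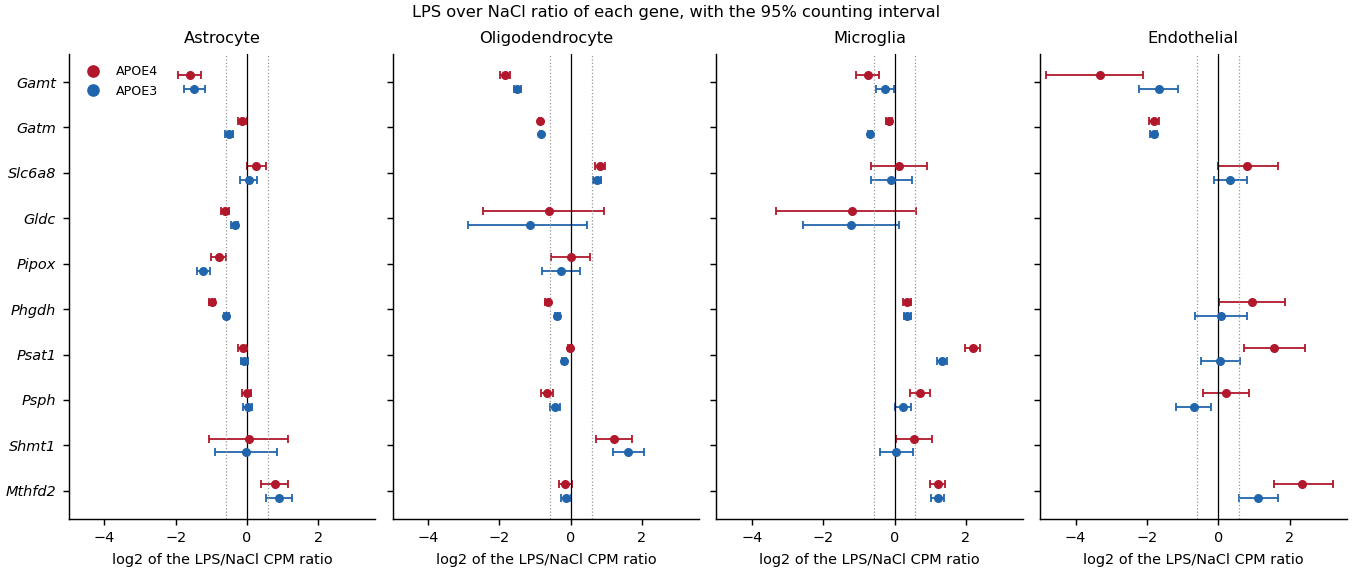
log2 of the LPS/NaCl CPM ratio of each gene in astrocytes, oligodendrocytes, microglia and endothelial cells, APOE4 above APOE3 for each gene, with the 95% counting interval and dotted lines at 1.5-fold, and no point where a gene was not measured. Gamt lies left of 0 in all 4 classes in both genotypes, and Psat1 lies right of 0 in microglia at 4.58-fold and 2.51-fold.

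Gldc was highest in astrocytes, and Pipox in astrocytes and neuroblasts. Gldc encodes the glycine decarboxylase of the cleavage system and measured 103.0 CPM in APOE4 LPS and 100.9 CPM in APOE3 LPS astrocytes, against 156.8 CPM in APOE4 NaCl and 128.4 CPM in APOE3 NaCl. It was lower in LPS by 1.52-fold in APOE4 (1.41 to 1.65) and by 1.27-fold in APOE3 (1.19 to 1.36). In oligodendrocytes it gave 5 and 6 UMIs in APOE4 LPS and APOE3 LPS, against 14 and 10 UMIs in APOE4 NaCl and APOE3 NaCl, with intervals of the ratio that held 1. After thinning, 8.18% and 8.91% of APOE4 LPS and APOE3 LPS astrocytes had a Gldc UMI, against 13.5% and 11.6% in APOE4 NaCl and APOE3 NaCl, where the highest share in oligodendrocytes was 0.152%. Before thinning the astrocyte shares were 25.9% and 26.7% against 35.7% and 29.0%.

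Pipox encodes the peroxisomal oxidase that turns sarcosine, a product of choline breakdown, into glycine. Its astrocyte level was 29.8 CPM in APOE4 LPS and 28.4 CPM in APOE3 LPS, against 51.6 CPM in APOE4 NaCl and 66.4 CPM in APOE3 NaCl. Both LPS libraries were under both NaCl libraries, by 1.73-fold in APOE4 (1.51 to 2.0) and 2.34-fold in APOE3 (2.07 to 2.64). Oligodendrocytes had 5.08 and 3.5 CPM in APOE4 LPS and APOE3 LPS, against 5.09 and 4.26 CPM in APOE4 NaCl and APOE3 NaCl, and both ratios held 1. A thinned UMI of Pipox was found in 3.16% and 3.14% of APOE4 LPS and APOE3 LPS astrocytes, against 5.19% and 6.48% in APOE4 NaCl and APOE3 NaCl. The unthinned shares were 10.0% and 9.78% against 16.3% and 19.2%. Microglia held 1 to 3 Pipox UMIs per library before thinning, in 0.0312% to 0.113% of their cells. The astrocytes of these shares had median depths of 3462, 3698, 3753 and 3334 UMIs in APOE4 LPS, APOE4 NaCl, APOE3 LPS and APOE3 NaCl.

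The folate enzymes differed by class. Mthfd2, the mitochondrial dehydrogenase that carries folate-bound one-carbon units, measured 14.1 CPM in APOE4 LPS and 13 CPM in APOE3 LPS astrocytes, from 127 and 172 UMIs, against 8.23 CPM in APOE4 NaCl and 6.98 CPM in APOE3 NaCl, from 119 and 107 UMIs. That is 1.71-fold higher (1.32 to 2.21) and 1.87-fold higher (1.46 to 2.40), the only member past 1.5-fold on the higher side in astrocytes of both genotypes. Microglia showed the same side, with 43.9 and 46.9 CPM in APOE4 LPS and APOE3 LPS against 19.0 and 20.2 CPM in APOE4 NaCl and APOE3 NaCl, or 2.31-fold and 2.32-fold higher. In endothelial cells Mthfd2 was 33.3 and 19.4 CPM (75 and 119 UMIs) in APOE4 LPS and APOE3 LPS, against 6.57 and 8.87 CPM (16 and 39 UMIs), which is 5.07-fold (2.93 to 9.33) and 2.18-fold (1.51 to 3.22) higher. In microglia and in endothelial cells LPS and NaCl cells lay mostly in different clusters, as given above. Oligodendrocytes had 45.9 and 42.8 CPM against 51.0 and 46.9 CPM, and both of these intervals held 1.

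Shmt1, the cytosolic hydroxymethyltransferase, was at or under 1.70 CPM in the astrocytes of all 4 libraries. In oligodendrocytes it measured 9.24 CPM in APOE4 LPS and 12.1 CPM in APOE3 LPS, from 80 and 222 UMIs, against 4.01 CPM in APOE4 NaCl and 3.97 CPM in APOE3 NaCl, from 63 and 55 UMIs. The gene was 2.31-fold higher (1.64 to 3.26) in APOE4 LPS and 3.05-fold higher (2.26 to 4.18) in APOE3 LPS.

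Astrocytes fell into 3 clusters, and the members differed between them. A cluster led by Chrdl1 and Lhx2 held 1079, 1996, 1491 and 1902 cells in APOE4 LPS, APOE4 NaCl, APOE3 LPS and APOE3 NaCl, and one led by Agt and Slc6a11 held 865, 1663, 1720 and 2323. Gldc itself was among the leading genes of the Lhx2-led cluster, so its level there is a description of the cluster. It stood at 169.4, 250.2, 183.2 and 230.1 CPM in the Lhx2-led cluster and at 42.7, 32.9, 26.1 and 33.3 CPM in the Agt-led one, again in that order. Pipox was the reverse, at 8.03, 18.9, 6.37 and 25.2 CPM in the Lhx2-led and 57.8, 95.3, 49.6 and 105.9 CPM in the Agt-led cluster. The enzyme that consumes glycine and the one that yields it were thus highest in different clusters in each of the 4 libraries. Phgdh, Psat1 and Psph were each higher in the Lhx2-led cluster in all 4 libraries, Phgdh for example at 379.0 against 191.4 CPM in APOE4 NaCl and 310.7 against 189.3 CPM in APOE3 NaCl.

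Gamt was lower in LPS within each of these clusters. In the Lhx2-led cluster it measured 13.1 and 11.8 CPM in APOE4 LPS and APOE3 LPS, against 40.6 and 33.7 CPM in APOE4 NaCl and APOE3 NaCl, that is 3.1-fold (2.34 to 4.18) and 2.86-fold (2.20 to 3.76) lower. In the Agt-led cluster it measured 8.42 and 7.0 CPM against 21.5 and 17.0 CPM, that is 2.55-fold (1.68 to 3.98) and 2.43-fold (1.73 to 3.46) lower. Phgdh was lower in both clusters too, by 2.02-fold and 1.46-fold in the Lhx2-led and 1.47-fold and 1.57-fold in the Agt-led cluster (APOE4, then APOE3). Mthfd2 was 2.15-fold (1.52 to 3.03) and 1.92-fold (1.36 to 2.73) higher in the Lhx2-led cluster, and 1.09-fold (0.677 to 1.73) and 1.82-fold (1.26 to 2.65) in the Agt-led one. Gldc in the Agt-led cluster was 1.30-fold higher in APOE4 LPS (1.04 to 1.62) and 1.28-fold lower in APOE3 LPS (1.05 to 1.56), so its direction in APOE4 was not that of the whole class. The third cluster, led by Gfap and Serpina3n, held 368 APOE4 LPS cells against 4, 42 and 17 in the other libraries. Its APOE4 LPS cells had Gldc at 36.4 CPM, Phgdh at 87.7 CPM and Gatm at 142 CPM. Without that cluster Gldc in APOE4 astrocytes had a log2 LPS ratio of -0.45, under 1.5-fold.

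**Figure D4:**
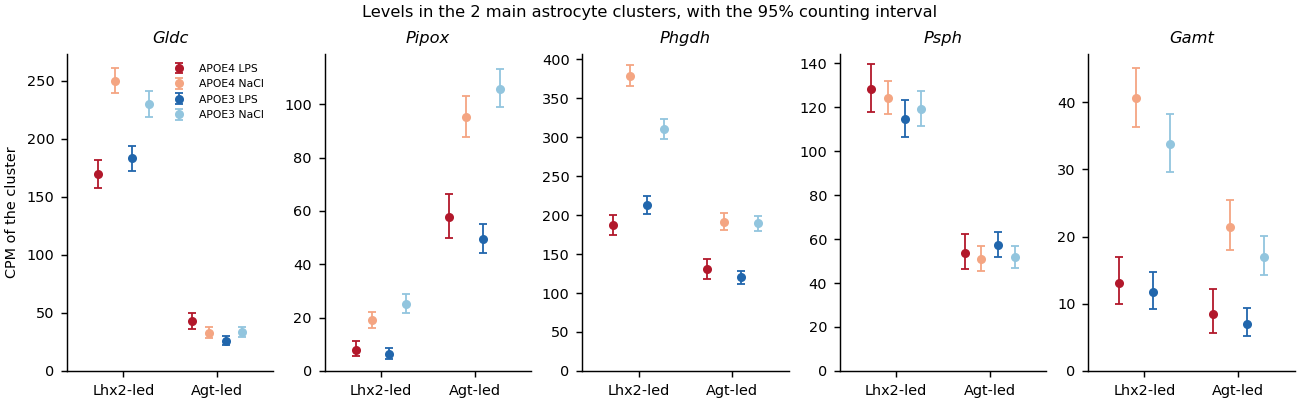
CPM of Gldc, Pipox, Phgdh, Psph and Gamt in the Lhx2-led and Agt-led astrocyte clusters, 1 point per library with its 95% counting interval on a linear axis from 0, LPS left of NaCl within each genotype. Gldc lies at 169.4 to 250.2 CPM in the Lhx2-led and 26.1 to 42.7 CPM in the Agt-led cluster, and Pipox at 6.37 to 25.2 CPM and 49.6 to 105.9 CPM.

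Levels were next compared between genotypes. In astrocytes 0 of 10 genes differed by 1.5-fold between APOE4 NaCl and APOE3 NaCl, where 3.59% of genes were that much higher and 6.44% that much lower in APOE4, and 0 of 10 differed between APOE4 LPS and APOE3 LPS, beside 8.49% and 4.83%. In oligodendrocytes 0 of 10 differed in NaCl, beside 5.36% higher and 5.5% lower, and 0 of 9 in LPS, beside 10.7% and 4.84%. With 10 genes these counts are near the shares of all genes, and they are not a finding that the genotypes are alike. Among NaCl astrocytes Gamt was 1.27-fold (1.11 to 1.45), Gldc 1.22-fold (1.15 to 1.30) and Phgdh 1.21-fold (1.15 to 1.26) higher in APOE4 than in APOE3, and Pipox was 1.29-fold lower. Within the Agt-led cluster the ratios were 1.26 (0.986 to 1.62) for Gamt, 0.99 (0.82 to 1.19) for Gldc and 1.01 (0.94 to 1.09) for Phgdh. Pipox gave 0.90 (0.808 to 1.001) there, and each interval held 1. In the Lhx2-led cluster Gamt, Gldc, Phgdh and Pipox gave 1.20, 1.09, 1.22 and 0.75, with intervals leaving out 1. That cluster held 1996 of 3663 APOE4 NaCl and 1902 of 4242 APOE3 NaCl astrocytes. The part of this mix was not tested.

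The LPS ratio itself differed between genotypes beyond counting error for 4 genes in astrocytes. On the log2 scale the ratio in APOE4 minus that in APOE3 was -0.40 for Phgdh (-0.52 to -0.28), -0.26 for Gldc (-0.41 to -0.11), 0.43 for Pipox (0.17 to 0.69) and 0.37 for Gatm (0.20 to 0.54). In the whole class Phgdh and Gldc were thus lower in LPS by more in APOE4 and Pipox by less, and no direction is drawn for Gatm. In the Agt-led cluster the order of the genotypes was not kept for Phgdh, 1.47-fold lower in APOE4 and 1.57-fold lower in APOE3, while Gldc was higher in APOE4 LPS and lower in APOE3 LPS there. In oligodendrocytes the intervals of Gamt (-0.35), Phgdh (-0.27), Psat1 (0.16) and Psph (-0.24) left out 0, and in microglia those of Psat1 (0.86), Gatm (0.53), Psph (0.46) and Gamt (-0.48). With 1 library a group, a difference of genotype and a difference of library cannot be told apart, and the APOE4 LPS library is the one of low depth.

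Around the 10 genes, 9 lists of 87 genes from serine, glycine, folate, methionine and creatine metabolism were counted in astrocytes. The shares of all genes past 1.5-fold are those given for astrocytes above, counts are of CPM ratios, medians are of log2 ratios of (CPM + 1), and some lists hold members. Of 14 genes of serine and glycine transport, 13 were measured, and 3 were past 1.5-fold higher in LPS in both genotypes, Slc1a5, Slc38a2 and Slc7a8, which all encode carriers of neutral amino acids. Slc38a2 measured 80.8 and 41.8 CPM in APOE4 LPS and APOE3 LPS astrocytes, against 17.6 and 23.5 CPM in APOE4 NaCl and APOE3 NaCl, or 4.59-fold and 1.77-fold higher. Slc1a5 measured 15.3 and 14.2 CPM against 3.94 and 4.83 CPM, or 3.88-fold and 2.94-fold higher. Slc7a8 was 6.35-fold and 1.67-fold higher, at 13.2 and 3.49 CPM against 2.07 and 2.09 CPM (119 and 46 against 30 and 32 UMIs). Microglia held far more, at 183.0 and 184.6 CPM against 261.5 and 271.4 CPM. In astrocytes the 10 microglia markers summed to 253 and 275 CPM in APOE4 LPS and APOE3 LPS, against 164 and 169 CPM. The part of microglial RNA in astrocyte Slc7a8 was not tested. On the lower side were 2 genes in APOE4 (Slc7a10 and Slc38a3) and 0 in APOE3, and the list's median log2 ratio was 0.17 and 0.02.

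Glycine cleavage had all 4 of its genes measured, with Gldc alone past 1.5-fold lower in APOE4 and 0 in APOE3, and medians of -0.26 and -0.25. Amt, the aminomethyltransferase that works beside GLDC, measured 42.0 and 37.8 CPM in APOE4 LPS and APOE3 LPS astrocytes, against 57.4 and 56.2 CPM in APOE4 NaCl and APOE3 NaCl, lower by 1.37-fold and 1.49-fold. In the folate list Mthfd2 was past 1.5-fold higher in both genotypes, and on the lower side were 2 genes in APOE4 (Tyms and Slc46a1) and 1 in APOE3 (Fpgs). Slc46a1, a folate carrier, measured 8.08 and 10.2 CPM in APOE4 LPS and APOE3 LPS astrocytes, against 14.0 and 13.3 CPM in APOE4 NaCl and APOE3 NaCl. Of 8 genes of sarcosine, betaine and choline breakdown 5 were measured, and Pipox was lower past 1.5-fold in both genotypes.

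The methionine cycle had 9 of 9 genes measured, with Mat2a, which makes the methyl donor used by GAMT, at 509.7 and 499.4 CPM in APOE4 LPS and APOE3 LPS astrocytes against 278.7 and 301.9 CPM in APOE4 NaCl and APOE3 NaCl, 1.83-fold and 1.65-fold higher. Transsulfuration and glutathione had 7 of 7 measured, 1 higher in each genotype (Gsr in APOE4, Cbs in APOE3) and medians of 0.30 and 0.24. Cbs, which draws serine into cysteine synthesis, measured 155.9 and 212.6 CPM against 121.5 and 110.1 CPM, or 1.28-fold and 1.93-fold higher. Of 8 creatine genes 6 were measured, with 0 higher and 2 lower (Gamt and Ckmt1) in each genotype and medians of -0.23 and -0.30. Ckmt1 had few UMIs, 9 in LPS against 27 in NaCl in APOE4 and 16 against 31 in APOE3. Ckb, the cytosolic creatine kinase, measured 2649 and 3210 CPM in APOE4 LPS and APOE3 LPS, against 3327 and 2718 CPM, so its direction was not shared. In oligodendrocytes 7 creatine genes were measured in APOE4, 2 higher and 5 lower, and 5 in APOE3, 1 higher and 3 lower, with medians of -0.71 and -0.79. Lower in both genotypes were Gatm, Gamt and Ckb, and higher in both was Slc6a8. The other APOE4 calls rest on few UMIs. In LPS against NaCl these were 2 against 14 for Ckmt1, 0 against 10 for Ckmt2 and 10 against 9 for Slc16a12. Of all genes measured in oligodendrocytes 17.5% were higher and 14.1% lower in APOE4, and 15.0% and 14.5% in APOE3.

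Genes of the ATF4 pathway, known to govern serine synthesis enzymes in stressed cells, had 15 of 18 measured in astrocytes, 6 higher and 1 lower in APOE4 and 3 higher and 1 lower in APOE3, with medians of 0.39 and 0.15. Cebpb, a transcription factor of inflammation, measured 99.3 and 43.2 CPM in APOE4 LPS and APOE3 LPS, against 14.6 and 15.1 CPM in APOE4 NaCl and APOE3 NaCl, 6.81-fold and 2.87-fold higher. Microglia held Cebpb at 1311 and 1195 CPM against 484.2 and 487.5 CPM, and the part of their RNA in the astrocyte value was not tested. Nupr1, a stress-response nuclear protein, was 3.56-fold and 1.66-fold higher. Vldlr, a lipoprotein receptor, was 1.79-fold and 1.61-fold lower. The serine synthesis list, Phgdh, Psat1 and Psph, had 1 gene lower in APOE4 and 0 in APOE3, with medians of -0.12 and -0.08.

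**Figure D5:**
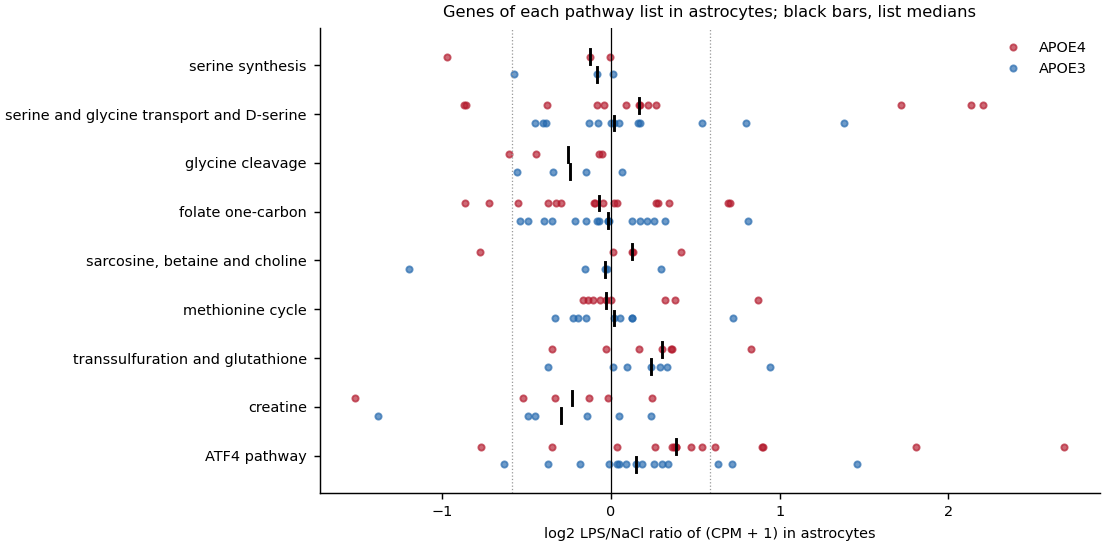
log2 LPS/NaCl ratio of (CPM + 1) in astrocytes for each measured gene of 9 pathway lists, APOE4 above APOE3, with black bars at the list medians and dotted lines at 1.5-fold. The ATF4 list has medians of 0.39 and 0.15, and the creatine list of -0.23 and -0.30.

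The genes whose pattern was most like that of a member were ranked by Pearson's r of log2(CPM + 1) over the 48 sums of 12 classes in 4 libraries, among 18214 genes. The sums share libraries and depth, so r is a description. Gamt was closest to Chmp1b (0.75), Ppp1r14a (0.73) and Dnajb12 (0.73), and Gatm to Pde8a (0.83), Ppp1r14a (0.79) and Smim15 (0.78). Gldc was closest to Nr2e1 (0.91), Ntrk2 (0.89) and Plcd4 (0.89), and Phgdh to Mpc1 (0.73), Tkt (0.73) and Gm50321 (0.71). Among the members, r was 0.73 for Psat1 with Psph, 0.70 for Phgdh with Psat1, 0.64 for Gamt with Gatm and 0.56 for Gldc with Pipox, whereas Gamt with Gldc gave -0.43.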

How the data were processed

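The deposited files hold whole-number UMI counts per gene and barcode, which per the file headers the authors made in Cell Ranger 7.0.1 (version 7.0 and build mm10 in the submitters' processing notes). Groups were taken from the sample titles. A barcode was kept with 500 genes, 1000 UMIs and no more than 20% of UMIs from mitochondrial genes. Doublets were called with Scrublet in scanpy 1.11.5, which did not work in APOE4 LPS. Cells were clustered together (2000 variable genes, 30 components, 15 neighbours, Leiden resolution 1) into 31 clusters, of which 6 stayed unnamed. The marker rule that names a cluster was completed after the clusters had been seen. The members, pathway lists and motifs were chosen with earlier results of these data known.

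UMIs were summed per class and library and divided by the class total (CPM). Levels have exact Poisson intervals, ratios exact conditional binomial intervals and shares exact binomial intervals, all at 95% and of counting error only. With 1 library a group no test across mice was possible. Pathway genes with at least 50 astrocyte UMIs in 1 library are named where past 1.5-fold the same way in both genotypes with intervals leaving out 1, and otherwise the gene with the largest mean ratio of its list. Others are listed in counts. Carried RNA was estimated from the summed markers of the source class. Differences of log2 ratios have approximate intervals. The procedures were checked on counts simulated with counting error alone. That check does not reach the spread between cells, mice or libraries. One result is not reported here.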

Additional observations from a re-analysis of the deposited data

Results flagged for a closer look

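In 4 cases the LPS ratio lay on opposite sides of 1 in the genotypes with both counting intervals leaving out 1. The difference was not tested, since each group is 1 library. Ratios whose intervals held 1 are not listed. Gatm in pericytes had an LPS over NaCl ratio of 0.551 in APOE4 and 1.37 in APOE3. Gatm in ependymal cells, which line the ventricles, had a ratio of 1.83 in APOE4 (86.0 CPM in LPS, 46.9 CPM in NaCl) and 0.388 in APOE3 (8.18 CPM in LPS, 21.1 CPM in NaCl). Gldc in the choroid plexus had a ratio of 1.74 in APOE4 and 0.762 in APOE3. Pipox in the choroid plexus had a ratio of 3.02 in APOE4, from 21 UMIs in LPS and 6 in NaCl, and 0.192 in APOE3, from 2 and 11. Choroid plexus cells held a median of 2544 UMIs in APOE4 LPS, 7262 in APOE4 NaCl, 5227 in APOE3 LPS and 6176 in APOE3 NaCl. Over all choroid plexus genes the median log2 LPS ratio was 0.63 in APOE4 and 0.07 in APOE3. In APOE4 55.9% of genes were at least 1.5-fold higher and 4.85% lower, and in APOE3 20.8% and 7.97%. The Htr2c-led cluster held 874 of 1194 choroid plexus cells in APOE4 LPS, against 67 of 599 in APOE4 NaCl.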

How the results depend on the processing

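Cell filters, doublet removal, clustering resolution, scaling, size and UMI minimums, single clusters and, chosen after seeing the data, leaving out the Klk6-led oligodendrocyte or the Gfap-led astrocyte cluster were varied one at a time. Of 48 recounts of members past 1.5-fold, 47 stayed within 1.5 times the count reported. The exception was astrocytes of APOE4 in the Agt-led cluster alone, with 2 members (Gamt and Pipox) in place of 5. Recounts with another constant added to CPM, and those without the UMI minimum, could not differ from the count reported. The count uses CPM ratios with no constant added, and all 10 genes were already measured in both classes. Of the member ratios recomputed, 351 stayed within the counting interval of the ratio reported, 48 moved beyond it and 1 reversed. Among ratios past 1.5-fold only Gldc in APOE4 astrocytes changed sign, with a log2 LPS ratio of 0.37 in the Agt-led cluster alone. Smaller ratios also changed sign in astrocytes of APOE4, Psat1 running from -0.20 to 0.25 and Slc6a8 from -0.21 to 0.50. In astrocytes of APOE3 Psat1 ran from -0.19 to 0.12 and Slc6a8 from -0.22 to 0.27. Gamt in astrocytes ran from -1.56 to -1.04 in APOE4 and from -1.45 to -0.89 in APOE3 on the log2 scale, and in oligodendrocytes from -1.92 to -1.66 and -1.52 to -1.35. Gatm in astrocytes ran from -0.30 to 1.01 in APOE4 and from -0.77 to 0.01 in APOE3. Its highest value in APOE4 came at a minimum of 2000 UMIs, where a mixed cluster of astrocyte and oligodendrocyte markers took the astrocyte name. Shares of cells with a UMI moved beyond their intervals under 149 of 160 recounts. These recounts left cells unthinned or thinned them to 2000 UMIs, and a share rises with depth. This count therefore says nothing of the difference between LPS and NaCl shares. No paired analysis was possible because each group is 1 library. Leaving out a replicate was likewise not possible, nor was a ratio within an oligodendrocyte or endothelial cluster. Counts of a few UMIs (Gldc in oligodendrocytes, Shmt1 in astrocytes) limit those ratios.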

Other observations

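A few values outside the main classes stood out in size. In the choroid plexus, which makes cerebrospinal fluid, Gatm was 151.1 CPM in APOE4 LPS and 38.7 CPM in APOE3 LPS, against 24.3 CPM in APOE4 NaCl and 26.4 CPM in APOE3 NaCl. Neurons had Gatm at 106.2 CPM and Phgdh at 42.2 CPM in APOE4 LPS, against 25.4 to 37.3 CPM and 6.29 to 7.69 CPM in the other 3 libraries. The neurons of APOE4 LPS had a median of 1932 UMIs, against 5798 to 7819 in the others. Of these 713 cells 523 lay in the Gm26871-led cluster, which met 5 of 9 neuron markers and which the other libraries almost lacked. The neuron class thus held different cells in APOE4 LPS. Ependymal cells had Slc6a8 at 87.8 CPM in APOE4 LPS and 35.0 CPM in APOE3 LPS, against 15.4 CPM in APOE4 NaCl and 22.8 CPM in APOE3 NaCl. Cells that the markers could not name had Gatm at 340.4 CPM in APOE4 LPS and 327.9 CPM in APOE3 LPS, against 748.8 CPM in APOE4 NaCl and 792.4 CPM in APOE3 NaCl. These are different mixtures of cells, so the values are not read as an LPS ratio. A cluster with pericyte and endothelial markers made 146 of 9226 unnamed cells in APOE4 LPS and 266 of 669 in APOE3 LPS. It made 72 of 178 in APOE4 NaCl and 181 of 264 in APOE3 NaCl.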
